A study of Mus musculus with 30 samples.

Results

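Alpha-defensins and other genes linked to the Paneth cell were followed across colon and colon tumors of mice with and without the spermine oxidase gene Smox. The genes were chosen by name: every row whose symbol begins with Defa followed by a number or a hyphen, together with Lyz1, Ang4, Pla2g2a, Itln1, Nupr1 and Mptx2. This gave 34 of the 31023 genes in the deposited table. Of these, 28 are alpha-defensins (27 genes and the pseudogene Defa-ps1) and 6 are the other named genes. The 6 are called other Paneth cell genes below, although Nupr1 encodes a nuclear protein. Gm15284, which the same choice names, has no row under that symbol and is not analysed here.

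Paneth cells sit at the base of the crypts of the small intestine and are normally scarce or absent in the mouse colon. They release granules of antimicrobial proteins into the crypt, among them alpha-defensins, called cryptdins in the mouse, which are small cysteine-rich peptides cut from a longer precursor by the protease Mmp7. Lysozyme, encoded by Lyz1, breaks bacterial cell walls. Wnt signalling at the crypt base promotes Paneth cell maturation, and colon tumors induced by azoxymethane commonly carry an active Wnt pathway.

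The mice were male C57BL/6, 8 to 12 weeks old, either wild type (WT) or Smox-/-, with 3 mice to a group, and colon RNA was taken after 56 days. AOM-DSS stands for a 12.5 mg/kg injection of the carcinogen azoxymethane and then 3 cycles of 4% dextran sulfate sodium, a detergent-like polymer that injures the colon lining, of 5 days each starting on days 5, 26 and 47. Spermidine, a polyamine, was supplied at 14 mM in the drinking water. In both genotypes, 4 groups of non-tumor colon were sequenced: untreated, spermidine, AOM-DSS, and AOM-DSS together with spermidine. A further 2 groups of tumors bring the number to 10. The tumors came from WT mice given AOM-DSS with spermidine and from Smox-/- mice given AOM-DSS alone, so genotype and spermidine cannot be told apart between them. Whether any tumor shares its mouse with a non-tumor library is not in the labels. The samples are pieces of bulk tissue, in which fewer cells of a type and less RNA per cell cannot be told apart.

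The defensin genes lie within chr8:21025545-21735471 on GRCm38, from the start of Defa21 to the end of Defa24, as annotated in GENCODE vM21. Their coding sequences were so alike that reads cannot always be given to 1 copy, and this limits every single-gene value. Over 351 pairs of the 27 coding sequences, the identity ran from 64.4% to 100%, with a median of 83.3%. In the classical cryptdins the last 120 coding bases hold the part that becomes the mature peptide. They are shown for 1 copy of each of 5 abundant families, and for Defa43 as a copy of a different layout, with cysteine codons (TGC or TGT, read in frame) in capitals.
Defa24: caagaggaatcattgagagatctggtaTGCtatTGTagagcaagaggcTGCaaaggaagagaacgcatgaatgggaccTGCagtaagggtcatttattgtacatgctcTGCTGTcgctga
Defa3: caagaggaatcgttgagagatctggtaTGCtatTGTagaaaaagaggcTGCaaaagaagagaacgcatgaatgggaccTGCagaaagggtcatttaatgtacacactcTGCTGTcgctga
Defa2: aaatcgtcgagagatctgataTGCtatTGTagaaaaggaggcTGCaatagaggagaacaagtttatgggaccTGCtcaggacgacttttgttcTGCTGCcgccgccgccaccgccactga
Defa36: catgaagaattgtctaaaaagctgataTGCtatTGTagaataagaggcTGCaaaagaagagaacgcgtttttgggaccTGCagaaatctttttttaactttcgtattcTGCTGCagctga
Defa21: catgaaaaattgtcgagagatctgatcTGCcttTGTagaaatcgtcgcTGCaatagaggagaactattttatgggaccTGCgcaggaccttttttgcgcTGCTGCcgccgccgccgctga
Defa43: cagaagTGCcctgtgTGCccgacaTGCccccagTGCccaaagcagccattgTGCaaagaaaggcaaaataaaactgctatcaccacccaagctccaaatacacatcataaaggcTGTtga
In this window 25 of the 27 genes held 6 cysteine codons and 2 held 7. Defa24, Defa3, Defa2, Defa36 and Defa21 share the layout of the classical cryptdins, ending in a pair of adjacent cysteines. Defa43, whose coding sequence is 351 bases long, does not have that pair and spaces its cysteines differently. It held 11 cysteine codons over its whole coding sequence, of which 6 lie in the window. The window has a fixed length, so its count can leave out cysteine codons of longer copies. Defa17 has the same coding sequence as Defa3, and the same holds for Defa2 and Defa33, Defa20 and Defa32, Defa23 and Defa31, Defa36 and Defa37, and Defa42 and Defa43.

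The 30 libraries held 33060607 to 81011304 estimated counts. Levels are given as CPM, which are counts relative to library size, with library sizes scaled by TMM, in the order of replicates 1, 2 and 3. Smox RNA was still counted in Smox-/- libraries. With spermidine alone it was at 18.6 to 26.6 CPM in Smox-/- and 43.7 to 49.4 CPM in WT libraries, and in AOM-DSS non-tumor colon at 26.1 to 35.8 CPM against 41.8 to 50.7 CPM, without overlap. In untreated colon Smox-/- libraries held 27.4 to 36.2 CPM against 25.1 to 27.6 CPM in WT, and with AOM-DSS and spermidine 23.2 to 63.1 CPM against 46.6 to 54.1 CPM, with overlap. The gene was not called between genotypes in any of these 4 comparisons (lowest adjusted p = 0.153, edgeR quasi-likelihood test), so the gene-level count checks the genotype labels only in part. A pair of non-tumor libraries stood apart from their groups. Untreated WT replicate 3 had a skeletal muscle list at 9352 CPM in sum, the highest of the 30 libraries, and distal hindgut position genes at 26.6 CPM, the lowest. Smox-/- AOM-DSS spermidine non-tumor replicate 1 held Wnt target genes at 2353 CPM in sum, within the 1015 to 6412 CPM of the tumors and above the other non-tumor libraries. For several results below that change without these 2 atypical libraries, the value without them is also given. Other libraries stood apart too. Untreated Smox-/- replicate 3 held squamous genes at 2834 CPM, against 52.7 and 155 CPM in its group. Smox-/- spermidine replicate 1 held skeletal muscle genes at 1609 CPM, against 20.7 and 40.9 CPM. Smox-/- AOM-DSS spermidine replicate 3 held distal hindgut genes at 68.6 CPM, against 338 and 591 CPM.

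Alpha-defensin RNA was close to absent from colon without AOM-DSS and abundant in all 6 tumors. Summed over the 28 defensins, the 12 libraries of mice without AOM-DSS held between 0 and 1.27 CPM. WT tumors held 912, 299 and 187 CPM, and Smox-/- tumors held 336, 1273 and 63.5 CPM. The tumor means were 466 ± 390 CPM (SD, n = 3) and 558 ± 635 CPM (SD, n = 3), so the spread within a tumor group was about as large as its mean. Each tumor library held counts for 21 to 26 of the 28 defensins.

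Non-tumor colon after AOM-DSS was low in most libraries but not in all. WT AOM-DSS replicate 1 held a defensin sum of 23.8 CPM, while replicates 2 and 3 held 1.64 and 0.583 CPM. Smox-/- AOM-DSS replicates held 4.81, 5.67 and 0.56 CPM, and WT AOM-DSS spermidine replicates held 0.555, 0.25 and 0 CPM. Smox-/- AOM-DSS spermidine replicate 1 held 221 CPM, above 2 of the 6 tumors, where replicates 2 and 3 held 0.0766 and 0 CPM. The libraries with the 2 highest non-tumor defensin sums, that one and WT AOM-DSS replicate 1, also had the highest non-tumor levels of Mmp7, at 272 and 79.2 CPM, and of the Wnt target list, at 2353 and 819 CPM. Whether these pieces of tissue held tumor cells was not tested.

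Lyz1 (chr10:117287797-117292868) followed the same libraries. WT tumors held 1993, 564 and 579 CPM, and Smox-/- tumors held 2045, 1547 and 272 CPM. In the non-tumor groups the highest values were 433 CPM in Smox-/- AOM-DSS spermidine replicate 1, 179 CPM in WT AOM-DSS replicate 1 and 33.9 CPM in untreated Smox-/- replicate 2. The other 21 non-tumor libraries held between 0.361 and 9.89 CPM. The 2 highest non-tumor libraries therefore reached or approached the lowest tumor, and all others lay far below it.

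**Figure D1:**
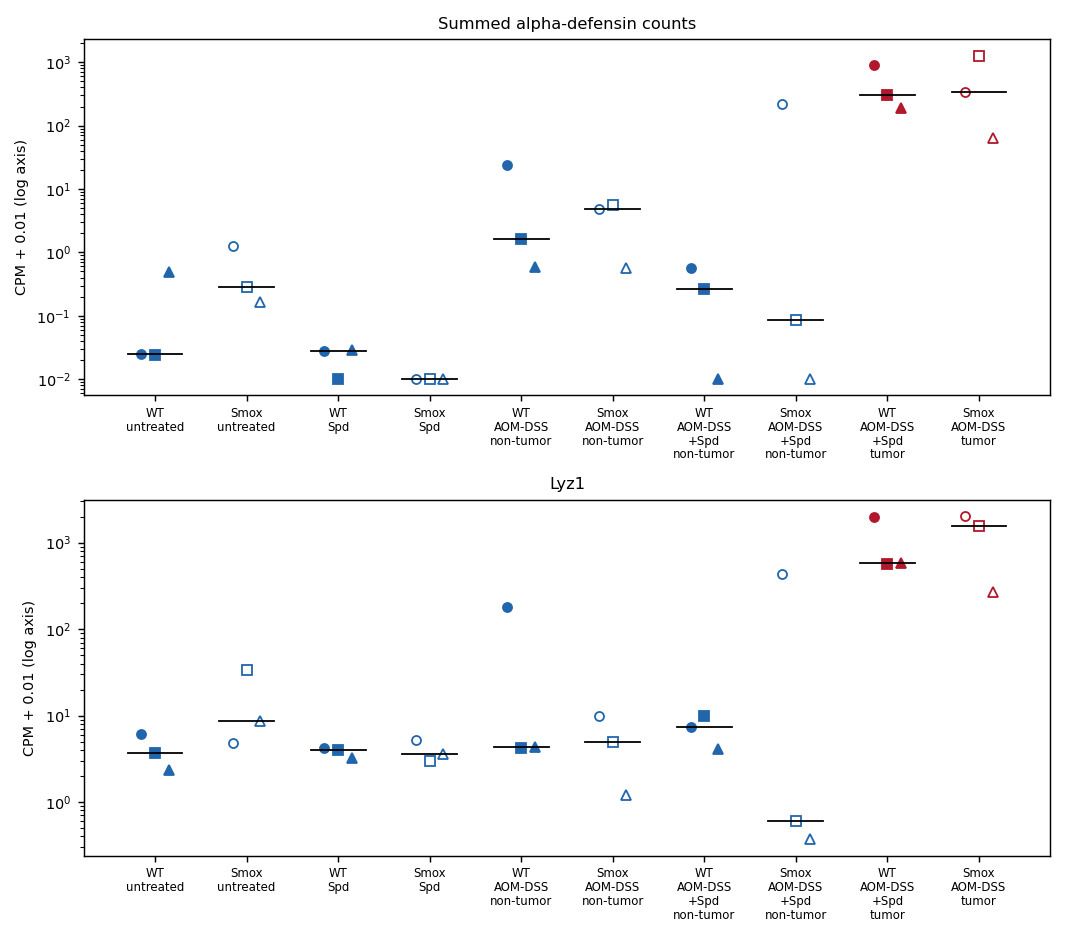
Summed alpha-defensin CPM and Lyz1 CPM in each library by group, plotted as CPM + 0.01 on log axes; blue points are non-tumor and red points tumor libraries, filled points WT and open points Smox-/-, with circles, squares and triangles for replicates 1, 2 and 3 and a black line at the group median. The 6 tumors lie between 63.5 and 1273 CPM for the defensin sum, and replicate 1 of the Smox-/- AOM-DSS spermidine non-tumor group lies among them at 221 CPM.

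The amount of defensin per Lyz1 differed between tumors. The defensin sum divided by the Lyz1 level, both in CPM, was 0.458, 0.53 and 0.323 in WT tumors and 0.164, 0.823 and 0.233 in Smox-/- tumors. It was 0.511 in Smox-/- AOM-DSS spermidine non-tumor replicate 1, which lies within the range of the tumors. Smox-/- tumor replicate 1 thus had the highest Lyz1 level of the 6 tumors but the lowest amount of defensin for it.

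Defa24 was the defensin gene with the highest level. WT tumors held 148, 76.8 and 38.8 CPM of it and Smox-/- tumors held 95.5, 183 and 15.8 CPM. Among non-tumor libraries it reached 56.8 CPM in Smox-/- AOM-DSS spermidine replicate 1, where replicates 2 and 3 had no count, and 7.31 CPM in WT AOM-DSS replicate 1. The remaining 22 non-tumor libraries had at most 1.12 CPM. Scaled to transcript length, the mean level over the 6 tumors was 222 CPM per kilobase for Defa24, against 924 for Lyz1, 229 for Pla2g2a, 144 for Defa3, 115 for Defa2, 114 for Defa36, 109 for Itln1 and 46.2 for Ang4.

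Defa3, Defa2 and Defa36 had the next highest levels. Defa3 was at 114, 33.6 and 24.7 CPM in WT tumors and at 43.6, 130 and 8.08 CPM in Smox-/- tumors. Defa2 was at 89.0, 29.4 and 17.7 CPM in WT tumors and at 24.8, 128 and 5.39 CPM in Smox-/- tumors. Defa36 was at 74.6, 27.5 and 15.2 CPM in WT tumors and at 39.5, 125 and 5.78 CPM in Smox-/- tumors. For all 3 genes WT tumor replicate 1 and Smox-/- tumor replicate 2 were the highest, and Smox-/- tumor replicate 3 was the lowest.

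The identical partner copies were counted at related levels. Defa17 was at 70.0, 22.3 and 16.3 CPM in WT tumors and 22.02, 70.3 and 5.19 CPM in Smox-/- tumors. Defa33 was at 71.3, 21.9 and 13.0 CPM in WT tumors and 19.3, 103 and 4.14 CPM in Smox-/- tumors. Defa20 was at 78.2, 16.8 and 13.7 CPM in WT tumors and 25.9, 108 and 3.84 CPM in Smox-/- tumors. These 3 genes again placed Smox-/- tumor replicate 3 lowest. Defa32 was at 56.8, 15.1 and 10.7 CPM in WT tumors and 17.6, 83.9 and 3.82 CPM in Smox-/- tumors. Defa37 was at 34.4, 8.15 and 5.88 CPM in WT tumors and 6.78, 34.8 and 1.89 CPM in Smox-/- tumors.

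A further tier of defensins had lower levels. Defa22 was at 45.0, 11.04 and 7.97 CPM in WT tumors and 10.1, 80.9 and 2.55 CPM in Smox-/- tumors. Defa21 was at 29.4, 6.49 and 3.85 CPM in WT tumors and 5.74, 60.6 and 1.35 CPM in Smox-/- tumors. Defa30 was at 21.6, 6.69 and 3.02 CPM in WT tumors and 4.62, 51.1 and 1.99 CPM in Smox-/- tumors. Defa21 and Defa22 differ from each other by at most 3 bases of coding sequence. Defa23 was at 23.8, 6.76 and 4.31 CPM in WT tumors and 3.01, 32.3 and 1.25 CPM in Smox-/- tumors. Defa5 was at 23.2, 8.23 and 3.68 CPM in WT tumors and 7.01, 38.1 and 0.985 CPM in Smox-/- tumors. Each of these genes was at most 0.432 CPM in the 22 non-tumor libraries outside WT AOM-DSS replicate 1 and replicate 1 of the Smox-/- AOM-DSS spermidine group.

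Defa41, Defa34 and Defa43 had mean levels of a few CPM in tumors. Defa41 was at 9.62, 3.42 and 1.67 CPM in WT tumors and 3.76, 18.4 and 0.484 CPM in Smox-/- tumors. Defa34 was at 8.62, 2.31 and 2.93 CPM in WT tumors and 3.83, 11.47 and 0.751 CPM in Smox-/- tumors. Defa43 was at 11.7, 1.65 and 3.07 CPM in WT tumors and 1.07, 10.8 and 0.15 CPM in Smox-/- tumors. In the same 22 non-tumor libraries these 3 genes were at most 0.0864, 0.0793 and 0.0346 CPM. Defa26, Defa28, Defa35 and Defa40 stayed at or below 1.28 CPM in every tumor. Defa27, Defa29, Defa31, Defa38, Defa39, Defa42 and Defa-ps1 did not pass the filter on low counts and were not tested, with tumor maxima between 0 and 0.983 CPM.

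**Figure D2:**
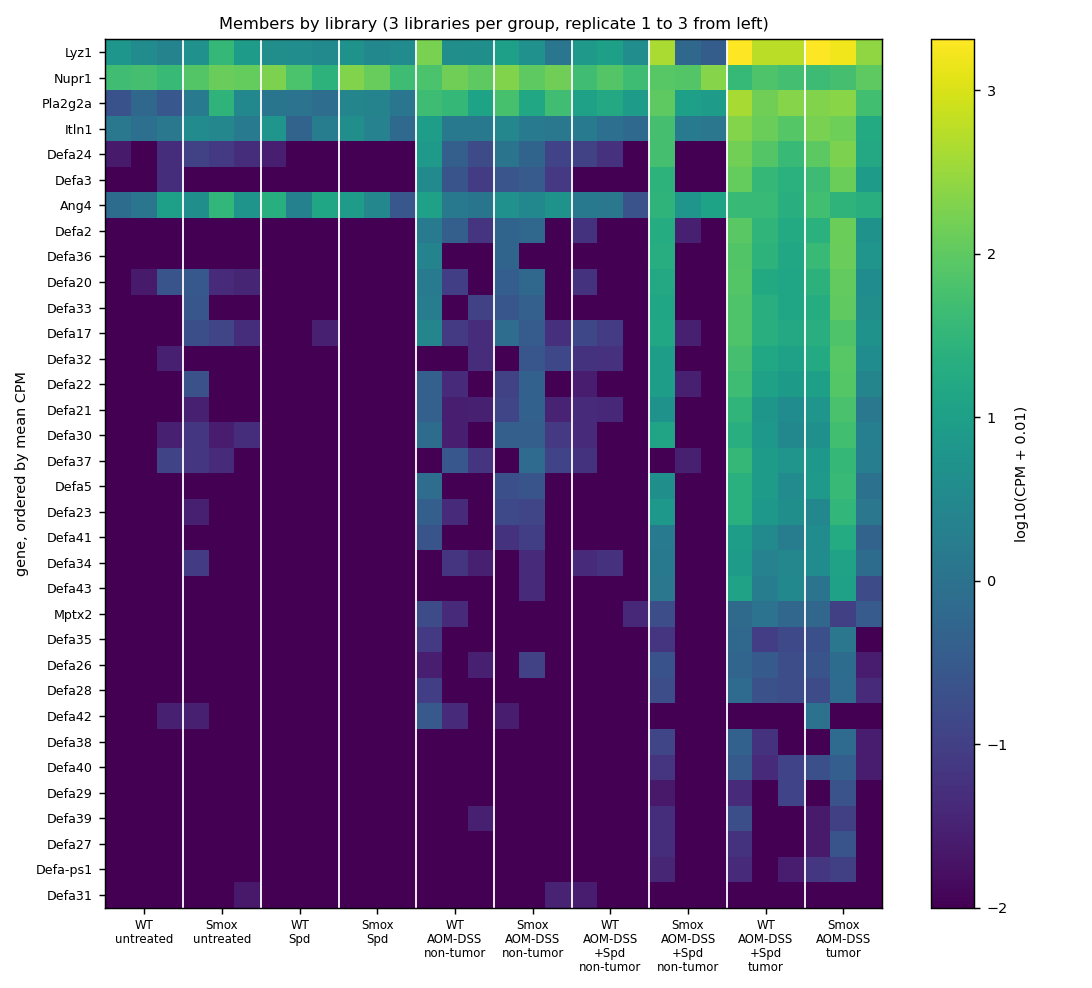
Level of each of the 34 genes in each of the 30 libraries, as log10(CPM + 0.01), with genes in rows and libraries in columns by group. The 6 tumor columns stand out across the defensin rows, as does Smox-/- AOM-DSS spermidine non-tumor replicate 1, whose summed defensins were at 221 CPM.

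In WT mice given AOM-DSS with spermidine, tumors were compared with non-tumor colon. Of the 27 genes tested 24 rose and none fell: 19 of the 21 tested defensins, and Lyz1, Itln1, Ang4, Pla2g2a and Mptx2. A gene is said to rise or fall where its adjusted p was under 0.05 in edgeR's quasi-likelihood test with Benjamini-Hochberg adjustment over the 19558 genes tested. Over all genes tested 16.9% rose and 17.5% fell in this comparison. The median log2 fold change of the 27 genes was 9.47, or 8.82 with the genes absent from one group set at their lower bound, against 0.01 over all genes. A gene whose only substantial counts are in tumors passes the filter through them, so these counts and medians describe the genes that passed and not the list as a whole. Near-identical copies also share reads, so the calls of such copies are not separate.

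Lyz1 rose 146-fold (log2 7.19, SE 1.95, adjusted p = 0.0077). Without WT tumor replicate 1 its log2 fold change was 6.32 (adjusted p = 0.0246). Defa24 rose 1517-fold (log2 10.57, SE 2.41, adjusted p = 0.00282), and its log2 value was 9.96 without WT tumor replicate 1 and 11.41 without non-tumor replicate 1. Both genes kept their call when any 1 library was left out. The tumor and non-tumor libraries did not overlap for either.

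Several defensins had no count in any of the 3 non-tumor libraries while a near-identical copy had some. Folds are therefore given for sums over copies, in which the split among the summed copies does not enter. Reads shared with copies outside a sum can still affect it. Defa3 and Defa17 together held 93.5 ± 78.4 CPM in tumors and 0.0696 ± 0.0658 CPM in non-tumor colon (SD, n = 3), a ratio of means of 1343. Defa2, Defa20, Defa32 and Defa33 together held 145 ± 131 CPM against 0.0646 ± 0.0751 CPM (SD, n = 3), a ratio of 2236. The family of Defa5, Defa35, Defa36, Defa37 and Defa41 held 72.1 ± 61.8 CPM in tumors, and with 3 counts in non-tumor colon its ratio was 3708 (95% counting interval 1269 to 17985). Defa42 and Defa43 had no count in non-tumor colon and were together at least 286-fold higher in tumors, set by a floor of 3 counts over the group. In none of these sums did the groups overlap. Of the single copies Defa3 (adjusted p = 0.00719), Defa33 (adjusted p = 0.0127), Defa36 (adjusted p = 0.0231), Defa2, Defa5, Defa20, Defa23, Defa41 and Defa43 were called. Defa37 had the smallest adjusted p of the defensins, 0.00156. Fitted folds of single copies were 451 for Defa17, 495 for Defa21, 707 for Defa32 and 143 for Defa34. The nearest copy of Defa34 is Defa5, which differs from it by 4 coding bases (98.6% identity). The value for Defa34 can therefore also depend on how shared reads were split. Without WT tumor replicate 1 the log2 values fell from 8.82 to 7.92 for Defa17, from 9.47 to 8.38 for Defa32 and from 7.16 to 6.34 for Defa34, each still called. Without non-tumor replicate 1 the value for Defa17 was 9.50, also called. Defa35 and Defa40 missed the threshold, with adjusted p of 0.0595 and 0.0519.

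Of the 24 calls, 17 held under every alternative analysis that was run: Lyz1, Itln1, Ang4, Pla2g2a and the defensins Defa2, Defa3, Defa17, Defa20, Defa21, Defa22, Defa23, Defa24, Defa30, Defa32, Defa33, Defa34 and Defa37. Mptx2 rose, with a ratio of 119 (95% counting interval 21.0 to 4729) that rests on 1 non-tumor count (adjusted p = 0.0128). Its adjusted p was 0.0512 without non-tumor replicate 1 and 0.0592 without non-tumor replicate 2.

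In Smox-/- mice given AOM-DSS alone, 20 of the 27 genes rose in tumors and none fell. They were 17 of the 21 defensins, Lyz1, Itln1 and Mptx2. Over all genes tested 11.4% rose and 13.2% fell. The median log2 fold change of the 27 genes was 7.12, or 6.85 with bounds, against -0.01 over all genes. As in the WT comparison, a gene can pass the filter through its tumor counts. These counts and medians therefore describe the genes that passed. Near-identical copies share reads, so their calls are not separate. The non-tumor libraries of this group held more defensin counts than those of the WT spermidine group, so that most genes could be given a fitted fold.

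Lyz1 rose 240-fold (log2 7.91, SE 2.01, adjusted p = 0.0107), with a log2 value of 8.74 without non-tumor replicate 1. Defa24 rose 167-fold (log2 7.38, SE 1.99, adjusted p = 0.0145), and its log2 value was 6.57 (adjusted p = 0.0559) without tumor replicate 2 and 8.31 (adjusted p = 0.0338) without non-tumor replicate 1. By sums over copies, Defa3 and Defa17 together held 93.0 ± 96.3 CPM in tumors against 0.606 ± 0.468 CPM (SD, n = 3), a ratio of means of 153. The ratio was 167 for the Defa2, Defa20, Defa32 and Defa33 family, 150 for the family of Defa5, Defa35, Defa36, Defa37 and Defa41, and 146 for Defa21 with Defa22. The fitted folds of single copies, which depend on how shared reads were split, spread more widely. Defa3 rose 279-fold, Defa32 267-fold, Defa33 183-fold, Defa22 169-fold and Defa41 152-fold. Defa2, Defa20 and Defa23 rose 139-, 135- and 135-fold, and Defa21, Defa17, Defa30 and Defa37 rose 115-, 80.5-, 66.4- and 51.3-fold. The ratio for Defa34, which had 2 counts in non-tumor colon, was 444 (95% counting interval 123 to 3672, adjusted p = 0.0105). Defa42 and Defa43 together had 3 counts there and a ratio of 239 (81.6 to 1162), and Defa43 was called (adjusted p = 0.0405). Defa35 was called as well (adjusted p = 0.0459). Defa40, with no count in non-tumor colon, was at least 10.5-fold higher (adjusted p = 0.0491), and Mptx2 at least 17.5-fold higher (adjusted p = 0.0244). Defa36 at 319-fold (adjusted p = 0.0508), Defa28 at a bound of 16.6 (adjusted p = 0.0526), Defa5 at 108-fold (adjusted p = 0.0625) and Defa26 at 8.79-fold (adjusted p = 0.157) were not called.

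These calls rested on single libraries to a larger degree than those in WT. Leaving out tumor replicate 2 left 3 of 20 genes called, leaving out tumor replicate 1 left 6, and leaving out non-tumor replicates 1, 2 and 3 left 6, 5 and 3. Leaving out tumor replicate 3, the tumor with the lowest levels, gave 24. Without a filter on low counts the number was 7. Lyz1, Itln1 and Defa34 were called under every alternative analysis. Leaving out tumor replicate 2 moved the log2 fold change of Defa17 from 6.33 to 5.08 (adjusted p = 0.0973), of Defa32 from 8.06 to 6.35 (adjusted p = 0.0623) and of Defa34 from 8.56 to 7.33 (adjusted p = 0.0481). Leaving out non-tumor replicate 1 moved Defa17 to 7.35 (adjusted p = 0.0525), and leaving out non-tumor replicate 2 moved Defa32 to 9.13 (adjusted p = 0.0424) and Defa34 to 11.31 (adjusted p = 0.0368). Mptx2 had a log2 value of 6.61 (adjusted p = 0.0846) without tumor replicate 1, and its adjusted p was 0.0526 in DESeq2.

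**Figure D3:**
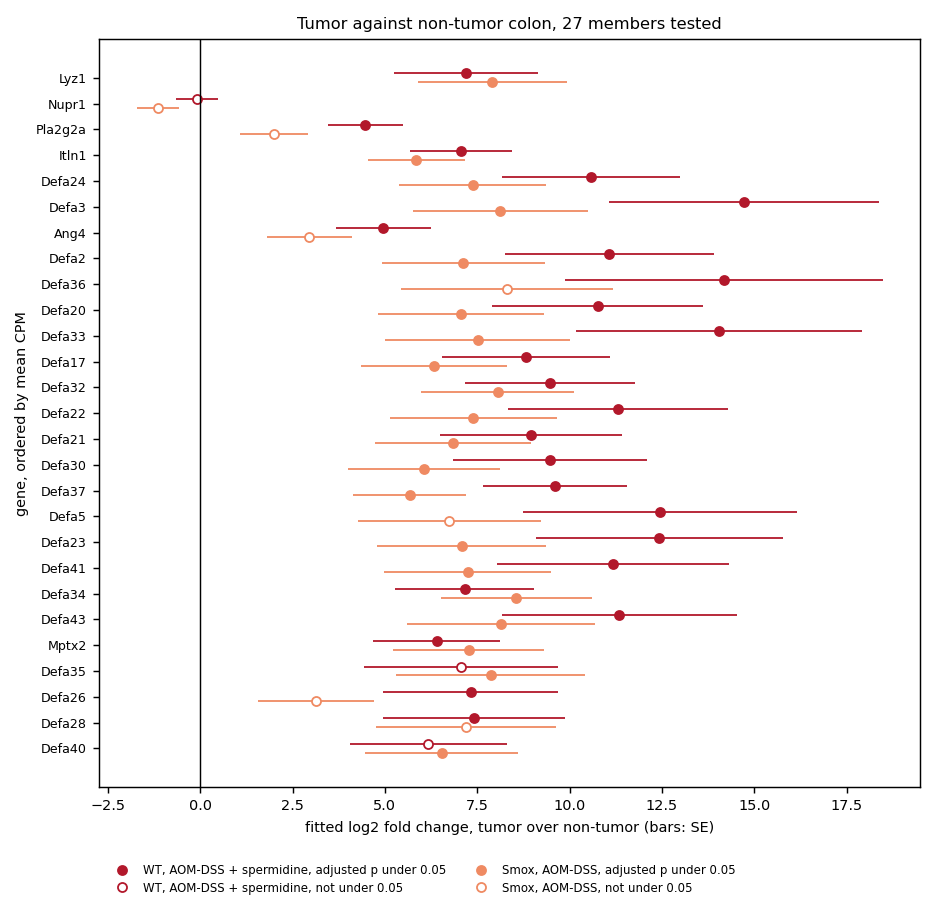
Log2 fold change of each tested gene in tumor against non-tumor colon, in WT mice given AOM-DSS with spermidine and in Smox-/- mice given AOM-DSS alone; bars are standard errors, and filled points have an adjusted p under 0.05. Values for genes with no non-tumor count depend on the model's prior. Of 27 genes 24 are filled in WT and 20 in Smox-/-, and Nupr1 lies near or below 0 in both.

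The 2 groups of tumors were then compared with each other. No gene of the 27 was called, none had an unadjusted p under 0.05 in edgeR, and DESeq2 called none. Over all genes tested edgeR called 0.0614%, and 1098 of 19558 had an unadjusted p under 0.05. The median log2 difference of the 27 genes, Smox-/- over WT, was 0.22. Over the 28 genes tested in each case, it was -1.32 without Smox-/- tumor replicate 2 and 1.14 without WT tumor replicate 1. The median thus has no stable direction. The defensin sum differed by more within each group, from 187 to 912 CPM in WT tumors and from 63.5 to 1273 CPM in Smox-/- tumors, than between their means.

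The make-up of the defensin RNA was then compared between tumors. Copies were joined into families through pairs whose coding sequences differ by at most 3 bases, which gave 17 families. Copies linked through another copy can differ by more, as Defa36 and Defa41 do by 7 bases. Reads shared within a family stay together, but families also share sequence with each other. Defa34, for example, shares 82.0% of its 31-base stretches with Defa5. Defa2, Defa20, Defa32 and Defa33 together made up 26.1 to 33.2% of the summed defensin CPM in the 6 tumors, with a median of 28.7%. Defa24, a family by itself, made up 14.3 to 28.4%, with a median of 22.8%. Defa3 and Defa17 made up 15.7 to 21.9%, and the family of Defa5, Defa35, Defa36, Defa37 and Defa41 made up 14.2 to 17.1%. The shares of these 4 families thus varied far less from tumor to tumor than the defensin sum did.

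The smaller families varied more for their size. Defa21 and Defa22 made up 4.71 to 11.1%, Defa30 1.38 to 4.01%, Defa23 with Defa31 0.895 to 2.61%, Defa34 0.772 to 1.57% and Defa42 with Defa43 0.237 to 1.64%. In Smox-/- AOM-DSS spermidine non-tumor replicate 1 the 4 main families, in the order given above, held 26.3, 25.7, 19.3 and 11.7% of the sum. In WT AOM-DSS non-tumor replicate 1 they held 19.4, 30.7, 25.5 and 14.3%. The order of the first 3 families in the former was that of the tumor medians, and in the latter Defa24 came first.

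**Figure D4:**
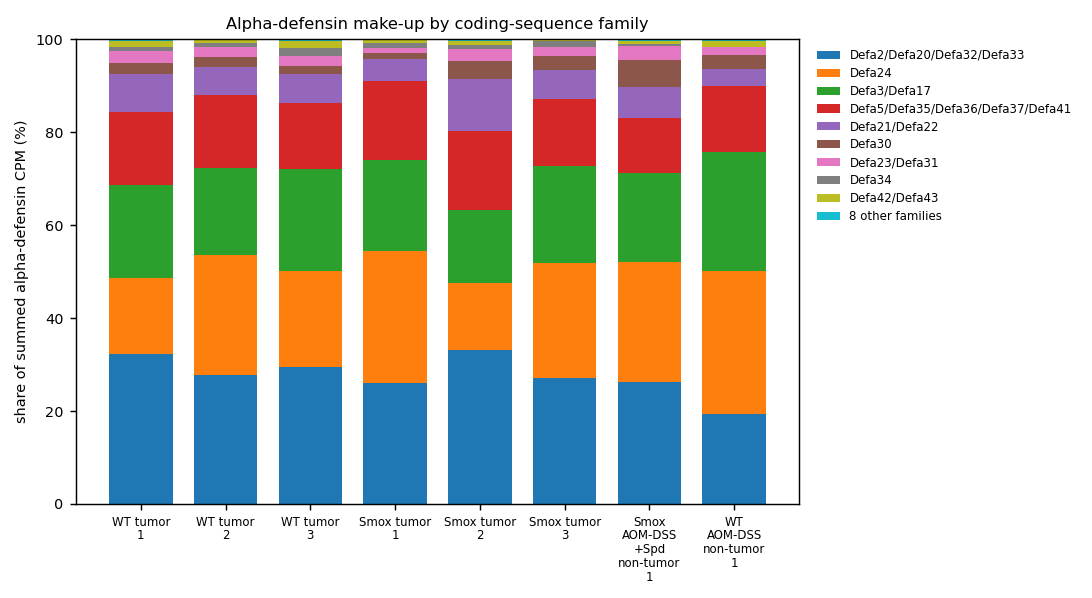
Share of each defensin family in the summed alpha-defensin CPM, in percent, for the 6 tumors and the 2 non-tumor libraries with the highest defensin sums. The Defa2, Defa20, Defa32 and Defa33 family holds 26.1 to 33.2% in the tumors, and the non-tumor libraries show the same main families.

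How the counts were divided between identical copies was read directly. Words of 31 bases were used to see how much of a transcript occurs in no other annotated gene. None of the words of Defa2, Defa20, Defa23, Defa31, Defa32, Defa33, Defa37, Defa42 or Defa43 was unique to its gene, and 0.3% of those of Defa5 and 4.4% of those of Defa36 were. For Defa24 the unique share was 42.9%, for Lyz1 65.8%, with the rest shared with Lyz2, and for Itln1 96.2%. In the tumors Defa17 took 33.6 to 39.9% of the counts of its pair with Defa3, and Defa2 took 55.5 to 57.8% of its pair with Defa33. Defa20 took 50.1 to 59.5% of its pair with Defa32, and Defa36 took 68.4 to 85.4% of its pair with Defa37.

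Some splits changed abruptly between libraries. In Smox-/- AOM-DSS spermidine non-tumor replicate 1, Defa36 held 1511 counts and Defa37 none. All counts of the Defa23 and Defa31 pair went to Defa23 in all 6 tumors. Defa42 held 67 counts beside 73 for Defa43 in Smox-/- tumor replicate 1, and none in the other 5 tumors, where Defa43 held 9 to 711. A value for 1 copy of such a pair is therefore uncertain, while the sum of the pair is not affected by the split within it. Reads shared with copies outside the pair can still affect the sum.

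Among the other Paneth cell genes, Itln1 (chr1:171518122-171535294), which encodes an intestinal lectin that binds microbial sugars, rose in both tumor groups. WT tumors held 212, 130 and 79.6 CPM, and Smox-/- tumors held 172, 138 and 17.5 CPM. Of the 24 non-tumor libraries, Smox-/- AOM-DSS spermidine replicate 1 reached 54.4 CPM, above Smox-/- tumor replicate 3, and the others ran from 0.492 to 8.92 CPM. The rise was 133-fold in WT (log2 7.06, SE 1.39, adjusted p = 0.000957) and 57.6-fold in Smox-/- mice (log2 5.85, SE 1.31, adjusted p = 0.00671). Within each tumor comparison the groups did not overlap.

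Ang4 (chr14:51763878-51773590) encodes a microbicidal ribonuclease of the angiogenin family. WT tumors held 37.1, 37.1 and 21.2 CPM and Smox-/- tumors 51.4, 28.8 and 21.2 CPM. Unlike the defensins, Ang4 was also measured in untreated colon, with 0.762, 1.21 and 9.91 CPM in the WT group and 4.34, 32.6 and 5.47 CPM in the Smox-/- group, and at 21.1, 2.16 and 13.4 CPM in WT mice given spermidine. It rose 31.1-fold in WT tumors (log2 4.96, SE 1.29, adjusted p = 0.00583). In Smox-/- tumors the fold was 7.78 (log2 2.96, SE 1.16) with an adjusted p of 0.0636. In that comparison DESeq2 gave an adjusted p of 0.0193 and a fit of only the 2 groups gave 0.0152.

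Pla2g2a (chr4:138831857-138835186), a secreted phospholipase known for killing Gram-positive bacteria, is annotated as a polymorphic pseudogene, and C57BL/6 mice are known to carry a disrupted allele of it. Its RNA was high in tumors, at 416, 147 and 223 CPM in the WT group and 206, 231 and 50.9 CPM in the Smox-/- group. It was also present in AOM-DSS non-tumor colon: WT libraries held 46.8, 34.8 and 11.8 CPM and Smox-/- libraries 58.0, 15.6 and 47.3 CPM. Untreated WT colon held 0.205, 0.624 and 0.269 CPM and untreated Smox-/- colon 1.53, 28.2 and 3.06 CPM. WT tumors rose 22.1-fold over their non-tumor colon (log2 4.47, SE 1.02, adjusted p = 0.00261). In Smox-/- mice the fold was 4.04 (log2 2.01, SE 0.92, adjusted p = 0.106) and the groups overlapped.

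Mptx2 (chr1:173274382-173277777), a pentraxin of the intestinal mucosa found in Paneth cells, was low throughout. It had no count in the 12 libraries without AOM-DSS. WT tumors held 0.674, 1.05 and 0.568 CPM and Smox-/- tumors 0.557, 0.0924 and 0.317 CPM, and non-tumor libraries at most 0.171 CPM. Nupr1 (chr7:126623249-126630861), which encodes a small nuclear protein induced by cell stress, did not follow the others. Its tumor levels, 36.8, 70.2 and 53.9 CPM (WT) and 43.9, 55.2 and 100 CPM (Smox-/-), lay within the non-tumor range of 26.5 to 225 CPM. Its log2 difference between tumor and non-tumor colon was -0.09 (SE 0.56, adjusted p = 0.917) in WT and -1.15 (SE 0.57, adjusted p = 0.133) in Smox-/- mice.

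**Figure D5:**
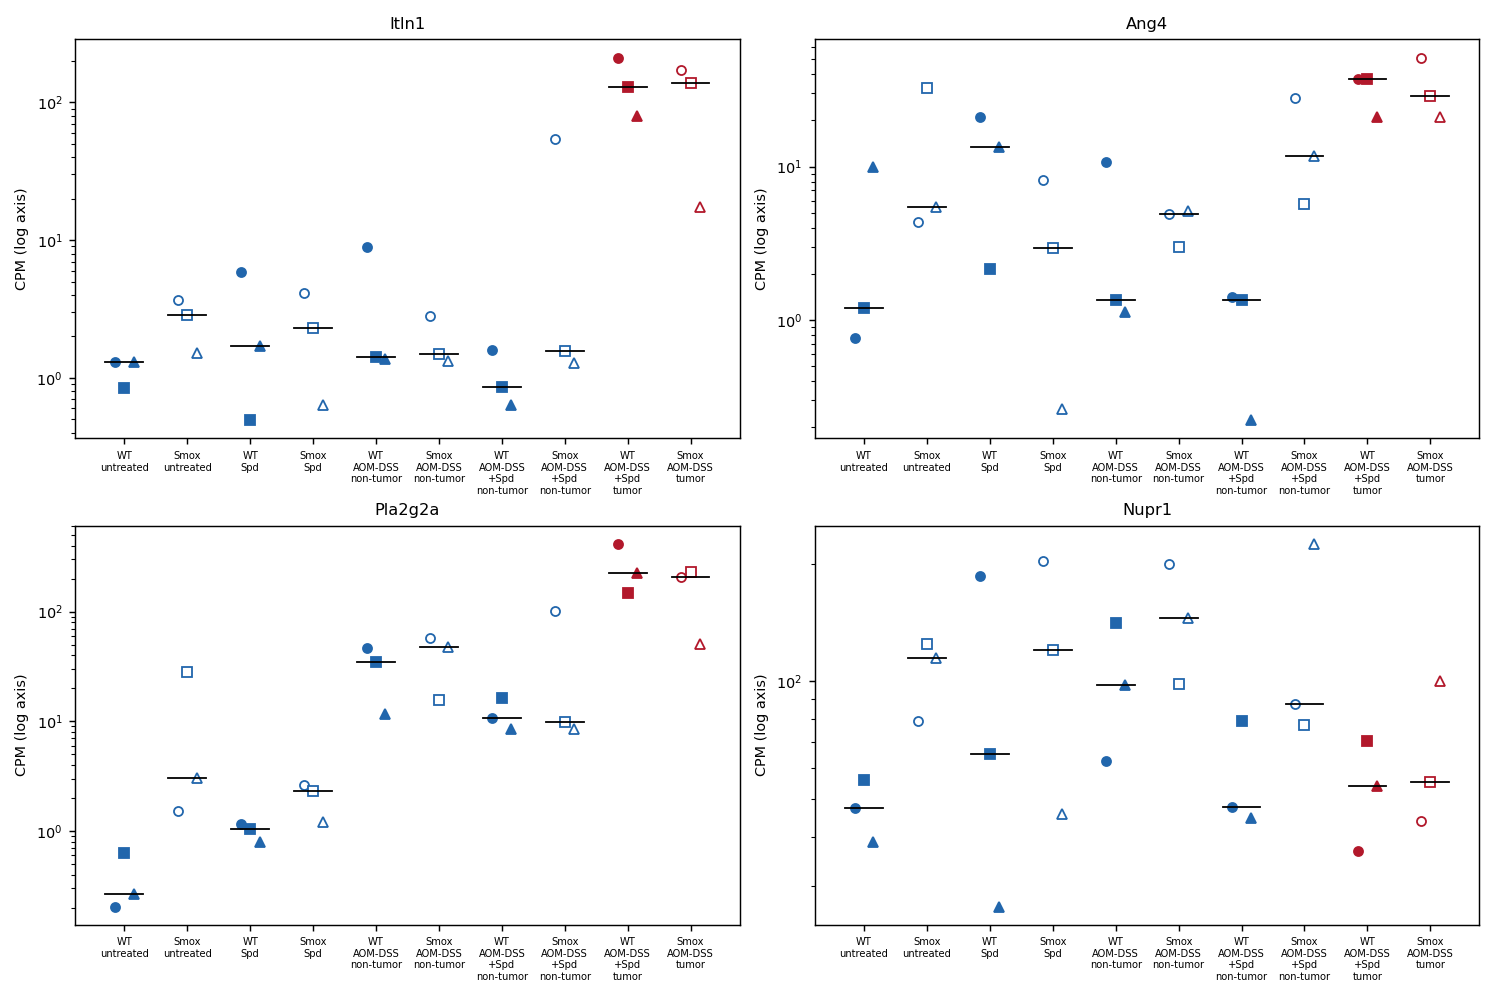
CPM of Itln1, Ang4, Pla2g2a and Nupr1 in each library by group on log axes, with the same colors and symbols as the plot of defensin sums and a black line at the group median. Itln1 reaches 212 CPM and Pla2g2a 416 CPM in tumors, while the tumor libraries of Nupr1 lie between 36.8 and 100 CPM, within its non-tumor range.

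Because the defensins moved together, their promoters were examined for short words bound by gut transcription factors. RefSeq promoter sequences on GRCm38.p6 were at hand for 16 defensins and 5 of the other genes, out of 32851 promoters, and the 250 bases before each start were searched on both strands. The word CTTTGAT, or its reverse complement ATCAAAG, which is the core recognised by the Wnt effector Tcf7l2 and its relatives, was found in 13 of the 16 defensin promoters, in none of the 5 others and in 3.21% of all promoters. In all 13 it stood as ATCAAAG, 2 times in 9 promoters, where the copies lay 40 bases apart, and once in 4. Defa38, Defa42 and Defa43 did not hold it. The defensin copies descend from each other, so these are not independent occurrences.

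Stretches of 125 bases, each ending before both the RefSeq and the GENCODE start, are shown for a promoter with 2 such words (Defa2), with 1 (Defa36) and with none (Defa43 and Lyz1), with ATCAAAG and TATAAA in capitals. Relative to the RefSeq start they end at base -3 for Defa2, -18 for Defa36, -44 for Defa43 and -1 for Lyz1. Defa2 is at chr8:21378390-21378514 on the plus strand, Defa36 at chr8:21427286-21427410 on the plus strand, Defa43 at chr8:21594509-21594633 on the minus strand and Lyz1 at chr10:117292869-117292993 on the minus strand.
Defa2: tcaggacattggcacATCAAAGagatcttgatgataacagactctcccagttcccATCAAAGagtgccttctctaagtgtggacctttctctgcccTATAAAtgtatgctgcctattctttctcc
Defa36: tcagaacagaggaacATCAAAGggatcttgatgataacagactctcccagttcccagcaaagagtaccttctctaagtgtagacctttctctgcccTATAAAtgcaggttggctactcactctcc
Defa43: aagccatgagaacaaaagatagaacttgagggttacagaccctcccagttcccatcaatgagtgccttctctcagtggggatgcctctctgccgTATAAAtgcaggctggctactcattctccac
Lyz1: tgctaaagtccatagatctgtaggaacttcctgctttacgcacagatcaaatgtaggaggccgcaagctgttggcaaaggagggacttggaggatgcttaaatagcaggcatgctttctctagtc
A match is a description of the sequence and not of binding. TATAAA was in 15 of 16 defensin promoters, in none of the 5 others and in 12.4% of all. GATAA, the word of GATA factors, was in all 16, in 1 of 5 and in 22.6% of all. CTTTGA, contained in CTTTGAT, was in 13 of 16, in 0 of 5 and in 13.8% of all, and CAAAG, which overlaps both, was in 13 of 16, in 4 of 5 and in 48.6% of all. The hindgut factor words TTTATG and TTTATTG were in none of the 16, in 1 of 5 each and in 10.8% and 4.2% of all promoters. GTTAAT was in 0 of 16, in 1 of 5 and in 6.43% of all, and TGTTTAC was in none of either and in 3.17% of all.

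A wider list of 30 genes of the Paneth cell program, holding none of the 34 genes above, was mixed. In WT tumors 8 of its 29 tested genes rose and 7 fell, with a median log2 fold change of 0.02, against 16.9% and 17.5% of all genes and a median of 0.01. In Smox-/- tumors 10 rose and 2 fell, with a median of 0.48, against 11.4% and 13.2% of all genes and a median of -0.01. Mmp7, the protease that cuts prodefensins, was at 405 ± 101 CPM in WT tumors against 0.783 ± 0.501 CPM (SD, n = 3), a rise of 495-fold (adjusted p = 0.00318). In Smox-/- tumors it was at 412 ± 233 CPM against 5.70 ± 3.53 CPM (SD, n = 3), a rise of 72.1-fold (adjusted p = 0.0214). Habp2, a secreted serine protease, rose in both: in WT tumors the ratio was 2020 (95% counting interval 559 to 16687, 2 counts in non-tumor colon, adjusted p = 0.00176), and in Smox-/- tumors the rise was 611-fold (adjusted p = 0.00678). Wnt3, a Wnt ligand that Paneth cells make, rose 10.1-fold in WT (adjusted p = 0.0179) and 59.0-fold in Smox-/- tumors (adjusted p = 0.00487).

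Mptx1, the colonic relative of Mptx2, was 8.27 ± 6.11 CPM in WT tumors against 309 ± 380 CPM (SD, n = 3), and fell by 5.22 on the log2 scale (adjusted p = 0.0341). In Smox-/- tumors its log2 difference was 0.84 (adjusted p = 0.734). Ephb3, a receptor that positions Paneth cells in the crypt, rose 3.41-fold in Smox-/- tumors (adjusted p = 0.00487) and had a log2 difference of 0.17 in WT tumors (adjusted p = 0.734). Atoh1 and Sox9 were picked after their values were seen. Atoh1, the transcription factor that sets the secretory fate, fell by 2.32 in WT tumors (adjusted p = 0.00125), and its log2 difference was -0.95 in Smox-/- tumors (adjusted p = 0.125). Sox9, a factor needed to form Paneth cells, rose 1.94-fold in WT (adjusted p = 0.0126) and 2.14-fold in Smox-/- tumors (adjusted p = 0.0109). The difference between the WT and Smox-/- changes was not tested for these genes.

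Wnt target genes rose in the same tumors. The list holds 20 genes, 4 of which are also in the Paneth program list. In WT tumors 17 rose, with a median log2 fold change of 3.67, against 16.9% of all genes. In Smox-/- tumors 18 rose, with a median of 3.84, against 11.4% of all genes. None fell in either. Notum, a secreted Wnt inhibitor, rose 2273-fold in WT (adjusted p = 0.00121) and 154-fold in Smox-/- tumors (adjusted p = 0.0115). Wif1, another secreted Wnt inhibitor, rose 645-fold in WT (adjusted p = 0.00078) and 124-fold in Smox-/- tumors (adjusted p = 0.00733). Lgr5, a stem cell receptor, rose 72.2-fold in Smox-/- tumors (adjusted p = 0.00619). In WT mice given AOM-DSS with spermidine, Lgr5 was at 97.0, 89.8 and 77.9 CPM in tumors. Non-tumor colon of that group held 3.19, 6.13 and 8.73 CPM. The list summed to 6412, 3118 and 4898 CPM in WT tumors and to 3600, 5129 and 1015 CPM in Smox-/- tumors. It was lowest in Smox-/- tumor replicate 3, which also had the lowest defensin sum. The order of the tumors was not the same throughout. WT replicate 3 lay above WT replicate 2 and Smox-/- replicate 1 for the list, but below both for the defensin sum.

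Markers of small intestine were examined because Paneth cells belong there. Of the 20 small intestine enterocyte genes, summed levels were 128 to 164 CPM in tumors against 211 to 2329 CPM in non-tumor colon. Of the 18 tested, 1 rose and 5 fell in WT tumors, against 16.9% and 17.5% of all genes. In Smox-/- tumors 2 rose and 7 fell, against 11.4% and 13.2% of all genes. Onecut2, a transcription factor of the small intestine, rose in both, by 209-fold in WT (adjusted p = 0.000705) and 34.8-fold in Smox-/- tumors (adjusted p = 0.00888), to 2.42 to 22.1 CPM. Its non-tumor median was 0.0787 CPM, and its non-tumor maximum of 20.5 CPM was in Smox-/- AOM-DSS spermidine replicate 1. Fabp2, a fatty acid binding protein of absorptive cells, fell in both, with log2 fold changes of -3.77 in WT (adjusted p = 0.0154) and -5.81 in Smox-/- tumors (adjusted p = 0.00553). Apoa4, an apolipoprotein of absorptive cells, had no count in any tumor, and Fabp1, Sis and Gata4 were at most 0.0153, 0.0167 and 0.0658 CPM. These 4 genes were low in non-tumor colon too, with medians of 0.049, 0.0367, 0.209 and 0.0751 CPM. The part of small intestine cells in the defensin result was not tested.

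Colonic lineages were lower in tumors. Of 12 colonocyte genes 10 fell in WT and 11 in Smox-/- tumors, and of 10 goblet cell genes 6 fell in each, with no rise in either list. Over all genes 16.9% rose and 17.5% fell in WT tumors, and 11.4% rose and 13.2% fell in Smox-/- tumors. Of 8 distal hindgut position genes none was called in WT tumors and 5 rose in Smox-/- tumors, whose non-tumor libraries summed to 223 to 326 CPM for this list against 495 to 633 CPM in the 6 tumors. The part of that difference in position in the Smox-/- result was not tested.

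Other cell types that express lysozymes or defensins were counted too. Of 8 tested neutrophil genes 4 rose in WT tumors and none in Smox-/- tumors, where the list summed to 130 to 393 CPM in the 6 tumors and to 1.46 to 491 CPM in non-tumor colon. Of 10 macrophage genes 3 rose and 1 fell in WT tumors, and 1 fell in Smox-/- tumors. Lyz2, the macrophage lysozyme with which Lyz1 shares sequence, was at 53.4 to 105 CPM in tumors and 8.98 to 129 CPM in non-tumor colon, a narrower range than that of Lyz1. None of 6 tested beta-defensin and cathelicidin genes was called in either tumor comparison. Of 12 squamous genes 2 rose in WT tumors and 6 in Smox-/- tumors. Of 3 tested pancreatic genes 1 rose in WT and 2 in Smox-/- tumors. Of 10 skeletal muscle genes none rose in either, and 1 fell in WT tumors. Over all genes 16.9% rose and 17.5% fell in WT tumors, and 11.4% rose and 13.2% fell in Smox-/- tumors.

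Between groups of non-tumor colon edgeR made 2 calls among the 27 genes, both of Pla2g2a, while DESeq2 called more genes in most of these comparisons. DESeq2 covered all 34 genes, and fits without some libraries tested 28 or 29. Their counts and medians are therefore not over the same 27 genes. Percentages over all genes are of edgeR calls at adjusted p. No share over all genes is given for DESeq2, so its numbers stand without a background. In untreated colon, Pla2g2a was 29.2-fold higher in Smox-/- than in WT mice (log2 4.87, SE 1.11, adjusted p = 0.0215), where over all genes 2.63% were higher. It was the only call in edgeR, and DESeq2 called 8 genes. The median log2 difference of the 27 genes was 0.5, or 0.0 with bounds, and 1.34 without untreated WT replicate 3. The Pla2g2a call rested on single libraries: without untreated Smox-/- replicate 2 the log2 difference was 2.61 (adjusted p = 0.186), and without untreated WT replicate 3, the library rich in muscle RNA, it was 4.73 (adjusted p = 0.109). Without Smox-/- replicate 3 the adjusted p was 0.0719, and without untreated WT replicate 2 the log2 difference was 5.49 (adjusted p = 0.0261). Without the 2 atypical libraries the edgeR adjusted p was 0.0725.

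In WT mice, Pla2g2a rose 83.3-fold in AOM-DSS non-tumor colon over untreated colon (log2 6.38, SE 1.17, adjusted p = 0.0122), where over all genes 1.76% were higher. Without untreated WT replicate 3 the log2 value was 6.26 (adjusted p = 0.0682), and without untreated WT replicate 2 it was 7.05 (adjusted p = 0.0108). DESeq2 called 12 genes here. The median log2 fold change of the 27 genes was 4.99, or 2.85 with bounds. It was 1.41 without WT AOM-DSS replicate 1 and 5.71 without the 2 atypical libraries. Lyz1 had a log2 fold change of 3.93 (adjusted p = 0.15), with a mean that rests on the 179 CPM of replicate 1. In Smox-/- mice the same comparison gave no edgeR call among the 27 genes, where over all genes 0.0767% were called, and 6 in DESeq2. None of the 27 had an unadjusted p under 0.05, against 2533 of all 19558 genes. Pla2g2a had a log2 fold change of 1.88 there (adjusted p = 0.392). The difference between the genotypes in the effect of AOM-DSS was -4.5 on the log2 scale for Pla2g2a (SE 1.39, adjusted p = 0.0955). Among the 27 genes edgeR called none for this difference, beside 0% over all genes, and DESeq2 called 8. An unadjusted p under 0.05 was found for 2 of the 27 and for 3088 of all 19558 genes. The median of the difference between genotypes was -2.14 and became 0.0 without WT AOM-DSS replicate 1.

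With spermidine, AOM-DSS gave no edgeR call among the 27 genes in WT non-tumor colon, where over all genes 1.91% were called. DESeq2 called 8, and 2 of the 27 had an unadjusted p under 0.05, against 3805 of all 19558 genes. In Smox-/- mice AOM-DSS gave no edgeR call, where over all genes 0.0205% were called. DESeq2 called 16, and 21 of the 27 had an unadjusted p under 0.05, against 3193 of all 19558 genes. The median log2 fold change of the 27 genes was 7.96 there, or 5.2 with bounds, and 0.0 without the 2 atypical libraries, of which Smox-/- AOM-DSS spermidine replicate 1 is part of the comparison. Under the same conditions Smox-/- against WT non-tumor colon gave no edgeR call, where over all genes 0.251% were called, and 11 in DESeq2. An unadjusted p under 0.05 was found for 20 of the 27 and for 2773 of all 19558 genes. The median there was 6.1, or 4.74 with bounds, and again 0.0 without them. Both medians therefore rest on 1 of the 3 mice of that group.

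The other comparisons of genotype called none of the 27 genes. After spermidine alone, none had an unadjusted p under 0.05, against 1882 of all 19558 genes. DESeq2 called 2, and edgeR called 0.0818% of all genes. After AOM-DSS alone, 2 had an unadjusted p under 0.05, against 1640 of all 19558 genes. DESeq2 called none, and edgeR called 0.0665% of all genes. The median log2 difference there was -0.72, and 1.38 without WT AOM-DSS replicate 1. Spermidine alone gave no edgeR call among the 27 in WT mice, beside 0.00511% over all genes. DESeq2 called 5, and none of the 27 had an unadjusted p under 0.05, against 3152 of all 19558 genes. In Smox-/- mice spermidine alone gave no edgeR call, beside 0% over all genes. DESeq2 called 8, and 1 of the 27 had an unadjusted p under 0.05, against 1825 of all 19558 genes.

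During AOM-DSS, spermidine gave no edgeR call among the 27 genes in WT non-tumor colon, beside 0% over all genes. DESeq2 called 6, and 2 of the 27 had an unadjusted p under 0.05, against 1109 of all 19558 genes. The median log2 difference was -3.51, and -0.27 without WT AOM-DSS replicate 1. In Smox-/- non-tumor colon spermidine during AOM-DSS gave no edgeR call, beside 0% over all genes. DESeq2 called 2, and 9 of the 27 had an unadjusted p under 0.05, against 2676 of all 19558 genes. The median was 3.98 with the high replicate 1 and -4.14 without it, so that its direction rests on that library. The difference between genotypes in the effect of spermidine gave no edgeR call in mice without AOM-DSS, beside 2.91% over all genes. DESeq2 called 8, and 2 of the 27 had an unadjusted p under 0.05, against 3977 of all 19558 genes. The median of this difference was -0.5, or -1.56 without the 2 atypical libraries. In mice given AOM-DSS the same difference gave no edgeR call, beside 0% over all genes. DESeq2 called 7, and 16 of the 27 had an unadjusted p under 0.05, against 820 of all 19558 genes. The median of 7.81 became 0.0 without Smox-/- AOM-DSS spermidine replicate 1, so these values rest on that library.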

How the data were processed

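Colon RNA of 30 mouse samples, 10 groups of 3, was sequenced from directional libraries, per the labels. The authors deposited estimated counts per gene as whole numbers. The submitters' processing notes name fastp, Salmon, DESeq2 and GRCm38; versions and settings are not given in the sources used here. Groups came from the titles and characteristics.

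Counts were tested with edgeR 4.0.16 (R 4.3.3): TMM scaling, filterByExpr (minimum count 10, minimum total 15; 19558 genes kept, 11465 removed), 1 robust quasi-likelihood model over 30 libraries with 20 residual degrees of freedom, and Benjamini-Hochberg adjustment at 0.05. Standard errors are the log2 fold change over the root of the F statistic. Intervals and floors cover counting error only. DESeq2 1.42.0, RLE scaling, no filter, only the groups compared, and leaving out libraries were the alternatives. The procedure was tested on simulated data. The labels do not state separate cages or batches. The genes, the 12 comparison lists and the alternatives were chosen with earlier results of these data known. Values in every library are given for genes with a mean of at least 1 CPM or a call, and at most 4 genes are named per list and comparison, called genes with the largest change first, some others being chosen after their values were seen. Sequences were compared with edlib 1.3.9.post1.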

Additional observations from a re-analysis of the deposited data

Results flagged for a closer look

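2 alpha-defensin pseudogenes have a row without a symbol in the deposited table and entered none of the comparisons. Defa-ps6 had 102, 42 and 19 counts in WT tumors and 8, 143 and 3 counts in Smox-/- tumors, 317 counts in all 6 tumors. It had 34 counts in Smox-/- AOM-DSS spermidine non-tumor replicate 1 and none in the other 23 non-tumor libraries. Defa-ps18 had 5 counts over the 6 tumors, in 3 of them, and none in the 24 non-tumor libraries. Both are listed because tumor counts stood above those of non-tumor colon in data that no comparison used.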

How the results depend on the processing

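The number of the genes called is given here for each change of analysis that moved it by more than 1.5 times or across 0. The main analysis tested 27 genes, DESeq2 and the analysis without a filter covered 34, and analyses with libraries left out tested 28 or 29. The numbers are thus not all over the same set of genes. Shares over all genes are not given for these changes, so the numbers stand without a background. With DESeq2 it was 8 for genotype in untreated colon (1 in edgeR), 2 with spermidine alone, 11 in non-tumor colon of the AOM-DSS spermidine groups, 12 for AOM-DSS in WT (1 in edgeR), 6 in Smox-/-, 8 in WT with spermidine and 16 in Smox-/- with spermidine. For spermidine it was 5 in WT, 8 in Smox-/-, 6 in WT during AOM-DSS and 2 in Smox-/- during AOM-DSS. For the differences of effects between genotypes it was 8 for AOM-DSS, 8 for spermidine and 7 for spermidine during AOM-DSS. Fitting only the groups compared gave 0 for genotype in untreated colon, 0 for AOM-DSS in WT and 1 for AOM-DSS in WT with spermidine. Only 5 genes were tested in each of these fits. Without the 2 atypical libraries the number was 0 for genotype in untreated colon and 1 for AOM-DSS in WT with spermidine. With no filter it was 7 in Smox-/- tumors. Leaving out 1 library at a time gave 3 to 24 in Smox-/- tumors, 17 to 25 in WT tumors, 0 to 1 for genotype in untreated colon and for AOM-DSS in WT, and 0 to 2 for AOM-DSS in Smox-/- with spermidine and for genotype in the AOM-DSS spermidine non-tumor groups. The cause of these changes was not tested.

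No call changed direction among the 10 genes followed through the alternatives. The median log2 difference of the genes did in 3 comparisons: from 3.98 to -4.16 without the 2 atypical libraries for spermidine during AOM-DSS in Smox-/-, from -0.72 to 1.38 without WT AOM-DSS replicate 1 for genotype after AOM-DSS, and from 0.22 to -1.32 without Smox-/- tumor replicate 2 between the tumor groups. Over the comparisons, 186 alternative counts stayed within 1.5 times of the value reported, 19 were higher and 13 lower. The 186 include comparisons with no call before and after the change, so the tally says little about how stable the calls are. The mean defensin sum over the 6 tumors was 512 CPM, 595 CPM with plain library totals, and 178 CPM with only the copies that have no identical partner. No paired analysis was possible because the labels carry a different library number for every sample and nothing that links a sample of one group to a sample of another. Defensins with no or few counts in a group are limited by depth: with 0 counts only a bound is given, and with 1 to 3 counts a ratio with its counting interval.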
